A study of Mus musculus with 4 samples.

Results

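Excitatory neurons sorted along with somatostatin (SST) interneurons made up 113 of the 2106 barcodes that passed the filter in the 3 tdTomato+ libraries, and 113 of the 2611 barcodes deposited in all 4 libraries. They were chosen by measured counts: a barcode had 2000 or more unique molecular identifiers (UMIs, one per captured transcript), under 25% of them from genes whose names start with mt-, 3 or more UMIs of Slc17a7 and more Slc17a7 than Gad1 and Gad2 together. These are called Slc17a7 cells, and they were set against the Sst cells of the same libraries, 1839 barcodes with 3 or more UMIs of Sst and none of Slc17a7 under the same UMI and mt- limits. The remaining 154 barcodes that passed the filter fell in neither set. All mice were triple transgenic on a Crl:CD1(ICR) background and carried SST-IRES-Cre, an LSL-tdTomato reporter and X94-GFP (SST-TdT-X94 in the labels), and both cell sets of a library came from the same animals. The P97 tdTomato+ library came from somatosensory cortex of 6 mice aged 97 days, and the P45 tdTomato+ libraries (replicates 1 and 2) from separate batches of mice aged 45 days, for which the sources used here give no number of animals. All 3 were sorted for tdTomato whether or not a cell held GFP. A GFP+/tdTomato+ library from the same dissociated cells as the P97 tdTomato+ library held a further 6 Slc17a7 cells, which are described beside the others but enter no test. Cre was driven from the Sst gene, so tdTomato marks any cell in which Cre has been active at some time, whatever it transcribes later, and the X94 transgene expresses GFP from a Gad1 promoter in a part of the SST population.

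Excitatory neurons of the cortex release glutamate, which the vesicular transporter encoded by Slc17a7 loads into synaptic vesicles. They arise from progenitors of the dorsal telencephalon under transcription factors such as Neurod2, Neurod6 and Tbr1, while SST interneurons come from the ventral telencephalon, make GABA through Gad1 and Gad2 and depend on Lhx6. In adult cortex, excitatory neurons differ by layer and by the target of their axons, and SST interneurons contact their dendrites.

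The 3 tdTomato+ libraries held 741 to 866 barcodes and 4801367 to 5693022 UMIs each, and 273 of their 2379 barcodes did not pass the filter. The median Slc17a7 cell held 10179.5 UMIs at P97, 6778 in P45 replicate 1 and 7750 in P45 replicate 2, against 7658, 5140 and 6137 UMIs for the Sst cells of these libraries. The mt- share was lower in the Slc17a7 cells, with medians of 3.71%, 3.33% and 3.57% against 4.68%, 4.71% and 4.33% in the Sst cells. Pairs of libraries shared 0 to 2 cell barcodes. Scrublet, a caller of doublets, marked 0.675 to 1.68% of the barcodes of a tdTomato+ library and 1 of the 113 Slc17a7 cells, so doublets were left in and removed only as an alternative. The GFP+/tdTomato+ library was deeper, with a median of 14836 UMIs over its 232 barcodes.

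The markers of excitatory neurons went with the label, with 1 exception given below. Slc17a7 (chr7:45163949-45176142, GRCm38), which chose the cells, was at 1120.2, 1323 and 1425 CPM (UMIs per 1000000 UMIs summed over a cell set of a library, here and below in the order P97, P45 replicate 1, P45 replicate 2) and by the rule at 0 in the Sst cells. Neurod6 (chr6:55677822-55681263), the other marker given with the label, was at 101, 445 and 378 CPM in the Slc17a7 cells, against 0.211, 0.771 and 0 CPM in the Sst cells. Of the 113 Slc17a7 cells 78.8% held a Neurod6 UMI, and after every cell was thinned to 2000 UMIs 44.2% did (exact 95% interval 34.9 to 53.9%), against 0.218% and 0.0544% of the Sst cells. The share in the Sst cells may understate the background of free RNA, because barcodes with any Slc17a7 UMI were kept out of them. The summed level of Neurod6 thus separated both sets in every library, though not every cell held it. It was lowest in the P97 cells, of which 10 of 18 held a Neurod6 UMI. All intervals on shares are Clopper-Pearson and cover counting error only.

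The other excitatory markers were tested by edgeR's quasi-likelihood test on sums per library, with library as a block and Benjamini-Hochberg adjustment. Across the 10784 genes tested, 2261 passed an adjusted p of 0.05 (21%), with 1172 higher (10.9%) and 1089 lower (10.1%) in the Slc17a7 cells, and the median log2 fold change was -0.05. Of 14 excitatory markers tested, 13 rose and 1 fell, with a median of 6.26. The p-values rest on 3 libraries and do not allow for the fact that both sets were chosen on Slc17a7, Gad1, Gad2 and Sst in the same cells, so counts for marker lists of these cell types describe how far the rule separated them. Neurod6 was followed by Neurod2, a related factor, at 117, 323 and 225 CPM in the Slc17a7 cells, against 0.633, 1.03 and 0.708 CPM in the Sst cells (log2 fold change 8.06 ± 0.30, adjusted p = 4.69e-11, where ± is the standard error). Tbr1, a factor of early-born projection neurons, was at 178, 45.6 and 148 CPM in the Slc17a7 cells, against 0.422, 0.771 and 0.708 CPM in the Sst cells (log2 fold change 7.50 ± 0.47, adjusted p = 1.06e-08). It was lowest in P45 replicate 1, whose cells made up 70 of the 113. Emx1, a factor of dorsal progenitors, had 38 UMIs in the Slc17a7 cells and 3 in the Sst cells, a ratio of pooled CPM (Slc17a7 over Sst cells) of 164, exact 95% interval 51.9 to 829.

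Markers of the excitatory synapse were more even across the libraries. Nrgn, which encodes the calmodulin-binding protein neurogranin, was at 2544, 2816 and 3134 CPM in the Slc17a7 cells, against 33.8, 55.5 and 61.6 CPM in the Sst cells (log2 fold change 5.89 ± 0.19, adjusted p = 9.57e-12), and after thinning 100% of Slc17a7 cells held a UMI of it, against 6.80% of Sst cells. Sv2b, a synaptic vesicle glycoprotein, was at 469, 413 and 409 CPM in the Slc17a7 cells, against 2.53, 7.71 and 3.07 CPM in the Sst cells (log2 fold change 6.68 ± 0.28, adjusted p = 1.11e-10). Arpp21, a cyclic AMP regulated phosphoprotein, was at 825, 466 and 553 CPM in the Slc17a7 cells, against 9.71, 30.1 and 34.2 CPM in the Sst cells (log2 fold change 4.74 ± 0.35, adjusted p = 6.96e-08). Camk2a, the kinase subunit central to plasticity of excitatory synapses, was at 845, 829 and 697 CPM in the Slc17a7 cells, against 163, 135 and 149 CPM in the Sst cells (log2 fold change 2.45 ± 0.16, adjusted p = 1.53e-08), so the Sst cells were not free of it. The exception was Slc30a3, which loads zinc into synaptic vesicles: it fell, at 133, 110.3 and 71.9 CPM in the Slc17a7 cells, against 215, 217 and 228 CPM in the Sst cells (log2 fold change -1.01 ± 0.20, adjusted p = 0.00189).

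Most interneuron genes were at or near 0 in the Slc17a7 cells. Gad1 and Gad2, which synthesize GABA and took part in the rule, were at 16.2, 5.7 and 13.5 CPM and 12.1, 9.51 and 4.5 CPM, against 1041, 1222 and 1124 CPM and 2254, 1003 and 979.9 CPM in the Sst cells, and 96 of the 113 cells held no UMI of either. All 18 other GABAergic markers tested fell, with a median log2 fold change of -6.30, or -5.80 with the 3 genes that had no UMI set to their bounds. Those 3 were Npas1, a transcription factor (at least 33.5-fold lower, taking 3 UMIs over all Slc17a7 cells as the floor), the neuregulin receptor gene Erbb4 (at least 25.5-fold lower) and the homeobox gene Dlx6 (at least 18.1-fold lower). Slc32a1, the vesicular GABA transporter, was at 8.09, 3.8 and 4.5 CPM in the Slc17a7 cells, against 435, 522 and 505 CPM in the Sst cells (log2 fold change -6.55 ± 0.31, adjusted p = 4.63e-10), and after thinning none of the 113 Slc17a7 cells held a UMI of it (interval up to 3.21%), against 58.6% of the Sst cells. Lhx6, a factor of the interneuron lineage, had 3 UMIs in all 113 cells, against 2197 in the Sst cells. Satb1, a chromatin organizer that also matures SST cells, fell less, at 117, 47.5 and 211 CPM in the Slc17a7 cells, against 663, 641 and 764 CPM in the Sst cells (log2 fold change -2.62 ± 0.26, adjusted p = 1.89e-06).

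Sst itself, a rule gene of the other set, was at 80.9, 112 and 94.4 CPM in the Slc17a7 cells, against 4841, 8579 and 5456 CPM in the Sst cells. Of the 113 cells, 52 held no Sst UMI and 9 held 3 or more, with a highest count of 6. After thinning 18.6% of Slc17a7 cells held an Sst UMI (11.9 to 27.0%) and 27.4% an Npy UMI (19.5 to 36.6%). Gad1 was held by 0.885% and Gad2 by 3.54%, against 82.3% and 84.9% of the Sst cells. These shares cannot be set against each other, because the rule limited Gad1 and Gad2 but not Sst or Npy. In the Sst cells of every library, Sst and Npy also had higher CPM than Gad1 and Gad2. Of the 13 peptide and reporter genes tested, 0 rose and 10 fell, with a median log2 fold change of -3.24. Npy, the neuropeptide Y gene, was at 149.6, 154 and 117 CPM in the Slc17a7 cells, against 3196, 9481 and 4304 CPM in the Sst cells (log2 fold change -5.21 ± 0.24, adjusted p = 3.56e-10). Cort, the gene of the somatostatin relative cortistatin, was at 28.3, 11.4 and 4.5 CPM in the Slc17a7 cells, against 323, 515 and 378 CPM in the Sst cells (log2 fold change -4.84 ± 0.33, adjusted p = 2.43e-08). Pdyn, the dynorphin precursor, was at 20.2, 7.61 and 8.99 CPM in the Slc17a7 cells, against 437, 372 and 473 CPM in the Sst cells (log2 fold change -5.15 ± 0.28, adjusted p = 2.22e-09). Crhbp, which binds corticotropin-releasing hormone, was at 12.1, 0 and 4.5 CPM in the Slc17a7 cells, against 284, 638 and 350.1 CPM in the Sst cells (log2 fold change -6.75 ± 0.46, adjusted p = 2.64e-08). Chodl, a marker of long-range SST cells, had no UMI in the Slc17a7 cells (at least 9.72-fold lower), and its call was lost with DESeq2 and without the library block.

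**Figure D1:**
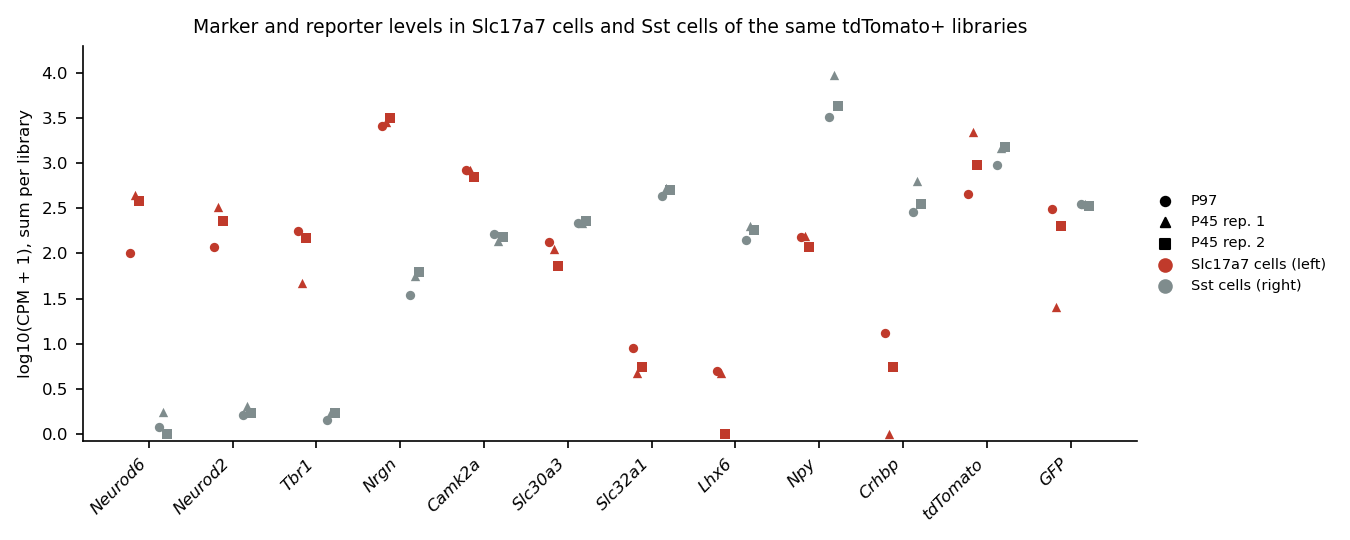
Levels of 12 marker and reporter genes as log10(CPM + 1) of the UMIs summed per library, Slc17a7 cells in red on the left and Sst cells in grey on the right of each gene, with 1 point per library (circle P97, triangle P45 replicate 1, square P45 replicate 2). Excitatory markers other than Slc30a3 are high on the left and GABAergic markers high on the right, without overlap. The sets lie closer for Camk2a, and Slc30a3 is the reverse, higher on the right. The sets overlap for tdTomato, and tdTomato and GFP of the Slc17a7 cells differ widely between libraries.

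Few barcodes lay at the edge of the rule. Of the 113 cells, 5 held exactly 3 Slc17a7 UMIs and 4 of these 5 also held Neurod6, while 4 held 4 UMIs. Just outside, among barcodes with more Slc17a7 than Gad1 and Gad2 UMIs together, 8 held 2 Slc17a7 UMIs, 2 of them with Neurod6, and 2 held 1 UMI. Another 18 barcodes held 1 or 2 Slc17a7 UMIs and at least as many of Gad1 and Gad2, and 16 of these 18 held 3 or more Sst UMIs. No barcode with 3 or more Slc17a7 UMIs was kept out by its GAD counts, its UMIs or its mt- share. The lowest total among the members was 2043 UMIs, in P45 replicate 1.

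The Slc17a7 cells took unequal shares of the 3 libraries. They were 18 of 617 barcodes at P97 (2.92%, interval 1.74 to 4.57%), 70 of 788 in P45 replicate 1 (8.88%, 6.99 to 11.1%) and 25 of 701 in P45 replicate 2 (3.57%, 2.32 to 5.22%), or 5.12% ± 3.27 (SD, n = 3 libraries). The share in P45 replicate 1 lay above both other libraries, whose intervals overlap, and the P45 shares lay farther from each other than P97 lay from P45 replicate 2. In the GFP+/tdTomato+ library 6 of 193 barcodes met the rule (3.11%, 1.15 to 6.64%), against 2.92% in the P97 tdTomato+ library from the same cells.

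The reporters split the Slc17a7 cells into patterns that hardly overlapped. Cells with 5 or more tdTomato UMIs and no GFP UMI numbered 82 of 113 (6 of 18 at P97, 62 of 70 in P45 replicate 1 and 14 of 25 in P45 replicate 2), and cells with 4 or fewer tdTomato UMIs and at least 1 GFP UMI numbered 23 (12, 4 and 7). Only 2 cells, both in P45 replicate 1, held 5 or more tdTomato UMIs together with GFP, and 6 had neither pattern. In the Sst cells, by contrast, 56.8% held both, 17.1% had the tdTomato pattern, 16% the GFP pattern and 10.1% neither. These limits were chosen after the values had been seen, so the split is given without a test. The GFP+/tdTomato+ library's 6 Slc17a7 cells showed it too, with 2 of the tdTomato pattern, 3 of the GFP pattern, 1 with neither and none with both.

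Within the patterns the counts lay far apart. Cells of the tdTomato pattern held a median of 17.5 tdTomato UMIs at P97, 15 in P45 replicate 1 and 11 in P45 replicate 2, with a range of 5 to 39. Cells of the GFP pattern held a median of 1 tdTomato UMI in each library and medians of 4.5, 2.5 and 7 GFP UMIs, with a highest count of 21. Over the 3 libraries the median mt- share was 3.26% for the tdTomato pattern and 4.03% for the GFP pattern, and the median totals were 7328.5 and 9311 UMIs. Neurod6 was seen in 70 of the 82 cells of the tdTomato pattern and 13 of the 23 of the GFP pattern.

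tdTomato was at 453, 2192 and 944 CPM in the Slc17a7 cells, against 941, 1462 and 1515 CPM in the Sst cells, which did not pass the test (log2 fold change -0.31 ± 0.24, adjusted p = 0.427). Both sets overlapped, and the call depended on 1 library: without P45 replicate 1, tdTomato was lower in the Slc17a7 cells by a log2 fold change of -0.83 and passed. GFP was at 307, 24.7 and 202 CPM in the Slc17a7 cells, against 349, 348 and 334 CPM in the Sst cells and passed narrowly (log2 fold change -1.25 ± 0.40, adjusted p = 0.0372). Its level was lowest in P45 replicate 1, without which the log2 fold change was -0.40 and did not pass, and the call was also lost with DESeq2, without the block, with the stricter members and without the cells with 3 or more Zbtb20 UMIs described below. No tdTomato UMI was seen in 10 of the 113 cells.

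**Figure D2:**
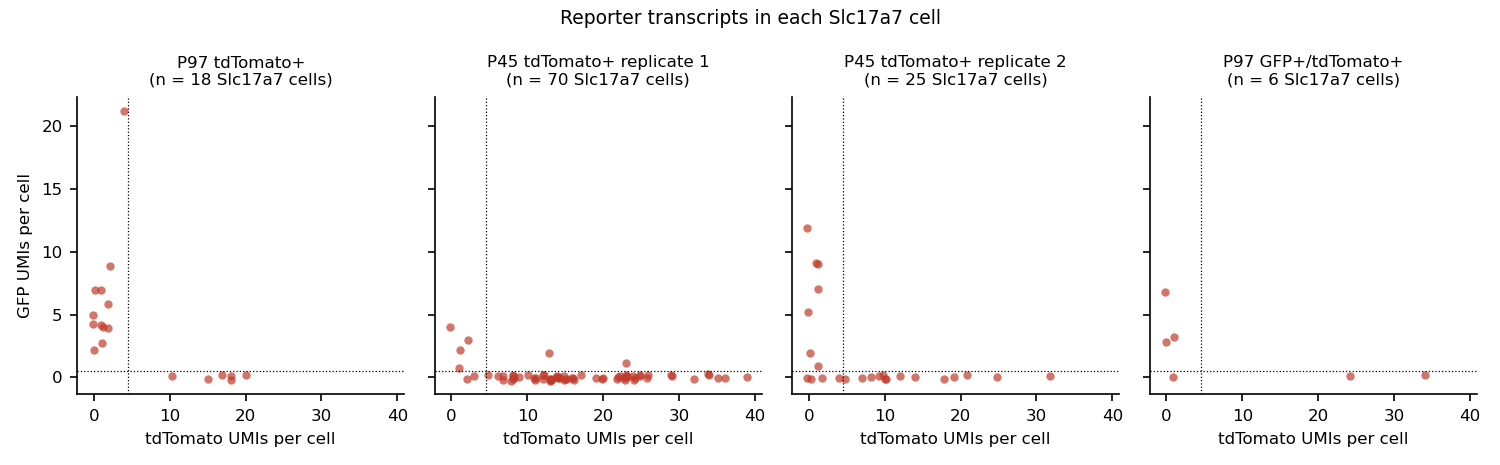
UMIs of tdTomato (horizontal axis) and GFP (vertical axis) in each Slc17a7 cell, 1 panel per library, with points shifted by up to 0.25 UMIs so that equal counts can be seen. Dotted lines separate 4 from 5 tdTomato UMIs and 0 from 1 GFP UMI: 82 cells of the tdTomato+ libraries lie in the lower right, 23 in the upper left and 2 in the upper right.

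Outside the lists, the genes with the largest increases were mostly seen in few or no Sst cells. Cd34, a cell surface sialomucin best known from blood progenitors, had 84 UMIs in the Slc17a7 cells and 1 in the Sst cells, and Nrp1, a semaphorin receptor, had 107 and 2, a ratio of pooled CPM of 691, exact 95% interval 187 to 5783. Fam19a1, a secreted protein gene, was at 239, 335 and 238 CPM in the Slc17a7 cells, against 0.844, 1.29 and 0.708 CPM in the Sst cells (log2 fold change 8.13 ± 0.27, adjusted p = 1.56e-11). Crym, which encodes a thyroid hormone binding protein, was at 52.6, 198 and 121 CPM in the Slc17a7 cells, against 0.844, 1.03 and 0 CPM in the Sst cells (log2 fold change 7.49 ± 0.48, adjusted p = 1.35e-08). Ptk2b, a calcium-activated tyrosine kinase, was at 392, 511 and 324 CPM in the Slc17a7 cells, against 3.8, 7.46 and 5.19 CPM in the Sst cells (log2 fold change 6.27 ± 0.22, adjusted p = 2.41e-11). None of these overlapped between the sets. Such genes were named for large changes in the same direction, so a lack of overlap, here and below, follows in part from that choice. The transcription factor Nfix was at 279, 203 and 252 CPM in the Slc17a7 cells, against 3.38, 3.34 and 3.07 CPM in the Sst cells (log2 fold change 6.24 ± 0.24, adjusted p = 4.69e-11). Nov, a matricellular protein, Gm2694, Gm11549 and the synapse organizer C1ql3 completed the 10 largest, with log2 fold changes of 7.59, 7.14, 6.43 and 6.31. Gm11549 and C1ql3 were at 303, 34.2 and 67.4 CPM and 497, 97 and 117 CPM in the Slc17a7 cells, highest at P97.

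The largest decreases outside the lists ended at 0 to 8 UMIs over the 113 cells. AF529169 and Nhs, the Nance-Horan syndrome gene, had no UMI in the Slc17a7 cells and 799 and 798 in the Sst cells, at least 20.6-fold lower each. Npas3, a neuronal transcription factor, Fam46a and A330050F15Rik had 1 UMI each, against 1353, 738 and 737 in the Sst cells. Pcdh18, a protocadherin, Kctd8, an auxiliary subunit of GABA-B receptors, and Rnd2, a small GTPase, had 2 UMIs each, and Rbms3, which binds RNA, had 3. Lgals1, the galectin-1 gene, was at 4.04, 7.61 and 13.5 CPM in the Slc17a7 cells, against 222, 438 and 377 CPM in the Sst cells (log2 fold change -5.44 ± 0.30, adjusted p = 2.45e-09).

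Genes of the postsynaptic density and of plasticity moved mostly one way, with 17 of 19 tested higher and 1 lower in the Slc17a7 cells and a median log2 fold change of 1.70. Over all genes tested 10.9% were higher and 10.1% lower, the shares to set beside the counts of this and the following lists. Itpka, an inositol trisphosphate kinase of dendritic spines, was at 121, 441 and 238 CPM in the Slc17a7 cells, against 1.69, 2.57 and 2.36 CPM in the Sst cells (log2 fold change 6.86 ± 0.28, adjusted p = 7.45e-11). Baiap2, an actin-binding scaffold, was at 311, 519 and 351 CPM in the Slc17a7 cells, against 17.5, 31.9 and 26.9 CPM in the Sst cells (log2 fold change 4.0 ± 0.18, adjusted p = 3.49e-10). Cnksr2 and Ddn, which encode a synaptic scaffold and dendrin, had log2 fold changes of 2.94 ± 0.20 and 2.67 ± 0.25. The scaffold gene Dlgap2 fell (log2 fold change -1.43 ± 0.31, adjusted p = 0.00345). Dlg2, which anchors glutamate receptors, was at 125, 127 and 117 CPM in the Slc17a7 cells, against 153, 167 and 149.8 CPM in the Sst cells and did not pass (log2 fold change -0.30 ± 0.18, adjusted p = 0.278).

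Glutamate receptors went both ways, with 5 of 18 higher, 7 lower and a median of -0.35. Grin3a, an NMDA receptor subunit, was at 16.2, 32.3 and 49.5 CPM in the Slc17a7 cells, against 465, 518 and 603 CPM in the Sst cells (log2 fold change -3.99 ± 0.23, adjusted p = 5.14e-09). The kainate receptor subunit Grik1 had no UMI in the Slc17a7 cells, against 180 in the Sst cells, at least 4.64-fold lower. Grik4, another kainate subunit, went the other way, at 48.5, 20.9 and 36 CPM in the Slc17a7 cells, against 6.12, 8.49 and 5.66 CPM in the Sst cells (log2 fold change 2.31 ± 0.46, adjusted p = 0.00152). Grm4, a presynaptic metabotropic receptor, fell (log2 fold change -2.53 ± 0.57, adjusted p = 0.0041). The AMPA subunit Gria3 was at 429, 422 and 292 CPM in the Slc17a7 cells, against 633, 484 and 475 CPM in the Sst cells and did not pass (log2 fold change -0.43 ± 0.16, adjusted p = 0.0782), though it did with no filter on low counts and without P45 replicate 1.

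Of the 14 GABA receptor genes, 6 were higher and 2 lower, with a median of 0.12. Gabra5, the subunit of extrasynaptic receptors, was at 64.7, 211 and 117 CPM in the Slc17a7 cells, against 5.7, 7.2 and 7.08 CPM in the Sst cells (log2 fold change 4.28 ± 0.31, adjusted p = 4.52e-08). Gabra2, a synaptic subunit, was at 146, 667 and 391 CPM in the Slc17a7 cells, against 42.6, 159 and 73.6 CPM in the Sst cells and overlapped between the sets (log2 fold change 2.15 ± 0.18, adjusted p = 2.65e-07). Subunits Gabrb1 and Gabra4 followed with log2 fold changes of 1.26 ± 0.21 and 1.05 ± 0.19.

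Ion channels also divided by subunit. Of 34 potassium and HCN channel genes, 12 were higher and 9 lower, with a median of 0.28. Kcnip1, an auxiliary subunit of A-type channels, had 2 UMIs in the Slc17a7 cells and 1761 in the Sst cells, a ratio of pooled CPM of 0.0147, exact 95% interval 0.00178 to 0.0531. Kcnc1, which encodes a fast Kv3 channel of fast-firing interneurons, was at 68.8, 55.1 and 58.4 CPM in the Slc17a7 cells, against 648, 476 and 544 CPM in the Sst cells (log2 fold change -3.13 ± 0.19, adjusted p = 8.74e-09). Among those that rose, Kcnv1, a modulatory subunit, was at 48.5, 68.4 and 108 CPM in the Slc17a7 cells, against 2.11, 5.4 and 2.36 CPM in the Sst cells (log2 fold change 4.50 ± 0.42, adjusted p = 8.78e-07). Kcnip3, which encodes a Kv4 auxiliary subunit, was at 93, 53.2 and 62.9 CPM in the Slc17a7 cells, against 3.8, 6.43 and 3.3 CPM in the Sst cells (log2 fold change 3.94 ± 0.40, adjusted p = 2.11e-06). All libraries of Slc17a7 cells lay above those of Sst cells for both. Kcnt2, a sodium-activated channel, was at 44.5, 26.6 and 31.5 CPM in the Slc17a7 cells, against 2.74, 6.17 and 2.59 CPM in the Sst cells (log2 fold change 3.15 ± 0.51, adjusted p = 0.000259).

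Of 24 sodium and calcium channel genes, 10 were higher and 4 lower, with a median of 0.34. The auxiliary calcium channel subunits moved in opposite directions. Cacna2d1 was at 235, 306 and 184 CPM in the Slc17a7 cells, against 3.59, 1.8 and 2.12 CPM in the Sst cells (log2 fold change 6.59 ± 0.28, adjusted p = 1.16e-10). Cacna2d2 was at 4.04, 17.1 and 13.5 CPM in the Slc17a7 cells, against 206, 235 and 296 CPM in the Sst cells (log2 fold change -4.19 ± 0.30, adjusted p = 4.18e-08). The subunits Cacnb1 and Cacna1e rose with log2 fold changes of 1.38 ± 0.22 and 1.28 ± 0.18. Scn1a, the sodium channel that supports firing of interneurons, was at 210.3, 103 and 135 CPM in the Slc17a7 cells, against 401, 328 and 324 CPM in the Sst cells (log2 fold change -1.25 ± 0.19, adjusted p = 0.000126). Scn8a, which is concentrated at axon initial segments, was at 376, 299 and 229 CPM in the Slc17a7 cells, against 314, 233 and 251 CPM in the Sst cells and did not pass (log2 fold change 0.22 ± 0.17, adjusted p = 0.405).

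Of 32 genes of the release machinery, 6 were higher and 8 lower, and the other 18 did not pass, with a median of -0.17. Apart from Sv2b, Cplx3, a complexin, rose (log2 fold change 5.42 ± 0.54, adjusted p = 1.89e-06). Unc13c, a vesicle priming factor, was at 8.09, 3.8 and 4.5 CPM in the Slc17a7 cells, against 92.6, 102 and 119.8 CPM in the Sst cells (log2 fold change -4.29 ± 0.39, adjusted p = 6.20e-07). The vesicle GTPase Rab3b was at 72.8, 9.51 and 27 CPM in the Slc17a7 cells, against 472, 497 and 473 CPM in the Sst cells (log2 fold change -3.93 ± 0.34, adjusted p = 4.74e-07). The sets were far apart in both. Rims3, an active zone protein, was at 40.4, 28.5 and 13.5 CPM in the Slc17a7 cells, against 180.0, 203 and 176 CPM in the Sst cells (log2 fold change -2.71 ± 0.27, adjusted p = 1.52e-06). Syt1, the calcium sensor of fast release, was at 2414, 1782 and 2253 CPM in the Slc17a7 cells, against 2491, 2872 and 2885 CPM in the Sst cells and did not pass (log2 fold change -0.32 ± 0.15, adjusted p = 0.152), though it did with no filter on low counts and without the P97 library.

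Of 16 peptides and growth factors, 6 were higher and 6 lower, with a median of -0.30, and the differences were large in both directions. Cck (chr9:121489824-121495694), the cholecystokinin precursor, which is made by excitatory neurons as well as by other interneurons, was at 1994, 2711 and 2464 CPM in the Slc17a7 cells, against 7.81, 12.9 and 6.37 CPM in the Sst cells (log2 fold change 8.11 ± 0.22, adjusted p = 1.78e-12), and after thinning 86.7% of Slc17a7 cells held a UMI of it, against 1.79% of Sst cells. Nrn1 (chr13:36725361-36735131), the gene of the activity-induced protein neuritin, was at 599, 532 and 486 CPM in the Slc17a7 cells, against 0.211, 2.57 and 1.18 CPM in the Sst cells (log2 fold change 8.73 ± 0.33, adjusted p = 4.69e-11). Bdnf, the neurotrophin, was at 89, 162 and 175 CPM in the Slc17a7 cells, against 1.06, 2.06 and 0.944 CPM in the Sst cells (log2 fold change 6.69 ± 0.34, adjusted p = 1.04e-09). Nxph3, a ligand of neurexins, was at 20.2, 17.1 and 45 CPM in the Slc17a7 cells, against 2.11, 2.31 and 2.36 CPM in the Sst cells (log2 fold change 3.51 ± 0.54, adjusted p = 0.000183). Igf1, the growth factor, went the other way, with 1 UMI in the Slc17a7 cells and 1683 in the Sst cells, a ratio of pooled CPM of 0.00768, exact 95% interval 0.000194 to 0.0428.

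Receptors for peptides and modulators had 9 of 27 higher and 7 lower, with a median of 1.05. Among those that rose were some receptors for somatostatin and corticotropin-releasing hormone, peptides of the interneurons in the same libraries. Sstr2, a somatostatin receptor, was at 68.8, 22.8 and 108 CPM in the Slc17a7 cells, against 1.27, 2.83 and 3.07 CPM in the Sst cells (log2 fold change 4.67 ± 0.51, adjusted p = 4.92e-06). Sstr3, another, was at 20.2, 55.1 and 27 CPM in the Slc17a7 cells, against 2.74, 2.06 and 3.3 CPM in the Sst cells (log2 fold change 3.70 ± 0.53, adjusted p = 8.75e-05). Sstr1, also a somatostatin receptor, went the other way: after thinning 0.885% of Slc17a7 cells held a UMI of it, against 8.65% of Sst cells. Crhr1, the receptor for corticotropin-releasing hormone, was at 24.3, 19 and 36 CPM in the Slc17a7 cells, against 1.27, 1.54 and 0.708 CPM in the Sst cells (log2 fold change 4.41 ± 0.60, adjusted p = 5.65e-05). Vipr1, a receptor for vasoactive intestinal peptide, had 23 UMIs in the Slc17a7 cells and 3 in the Sst cells, a ratio of pooled CPM of 99.1, exact 95% interval 29.9 to 515. Vip, the gene of that peptide, was seen in only 16 of the 1839 Sst cells. Oxtr, the oxytocin receptor, fell, at 0, 9.51 and 0 CPM in the Slc17a7 cells, against 63.5, 83.1 and 64.6 CPM in the Sst cells (log2 fold change -3.87 ± 0.49, adjusted p = 2.54e-05), and the muscarinic receptor Chrm3 did not pass (log2 fold change 0.29 ± 0.22, adjusted p = 0.42).

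Immediate early genes, which are transcribed within minutes of neuronal activity and also respond to tissue handling, had 11 of 17 higher and 0 lower, with a median of 1.74. Arc, which regulates AMPA receptors at synapses, was at 226, 255 and 269.8 CPM in the Slc17a7 cells, against 16, 36.8 and 13.2 CPM in the Sst cells (log2 fold change 3.61 ± 0.26, adjusted p = 4.18e-08). Egr4, a zinc finger factor, was at 60.7, 119.8 and 103 CPM in the Slc17a7 cells, against 2.74, 10.3 and 2.83 CPM in the Sst cells (log2 fold change 4.28 ± 0.37, adjusted p = 3.86e-07). Nr4a3, an orphan nuclear receptor, was at 52.6, 85.6 and 36 CPM in the Slc17a7 cells, against 4.85, 6.43 and 2.36 CPM in the Sst cells (log2 fold change 3.71 ± 0.38, adjusted p = 2.29e-06). In each of these the sets did not overlap. Ier5 was at 166, 158 and 166 CPM in the Slc17a7 cells, against 18.1, 15.2 and 12.5 CPM in the Sst cells (log2 fold change 3.46 ± 0.22, adjusted p = 1.37e-08). Nr4a1, another nuclear receptor, was at 117, 106 and 67.4 CPM in the Slc17a7 cells, against 14.8, 19.8 and 9.44 CPM in the Sst cells (log2 fold change 2.76 ± 0.27, adjusted p = 1.34e-06). Fos, the most used of these genes as a sign of activity, was at 60.7, 58.9 and 76.4 CPM in the Slc17a7 cells, against 45.6, 91 and 41.3 CPM in the Sst cells, overlapped between the sets and did not pass (log2 fold change 0.14 ± 0.28, adjusted p = 0.789). The part of tissue handling in these levels was not tested.

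**Figure D3:**
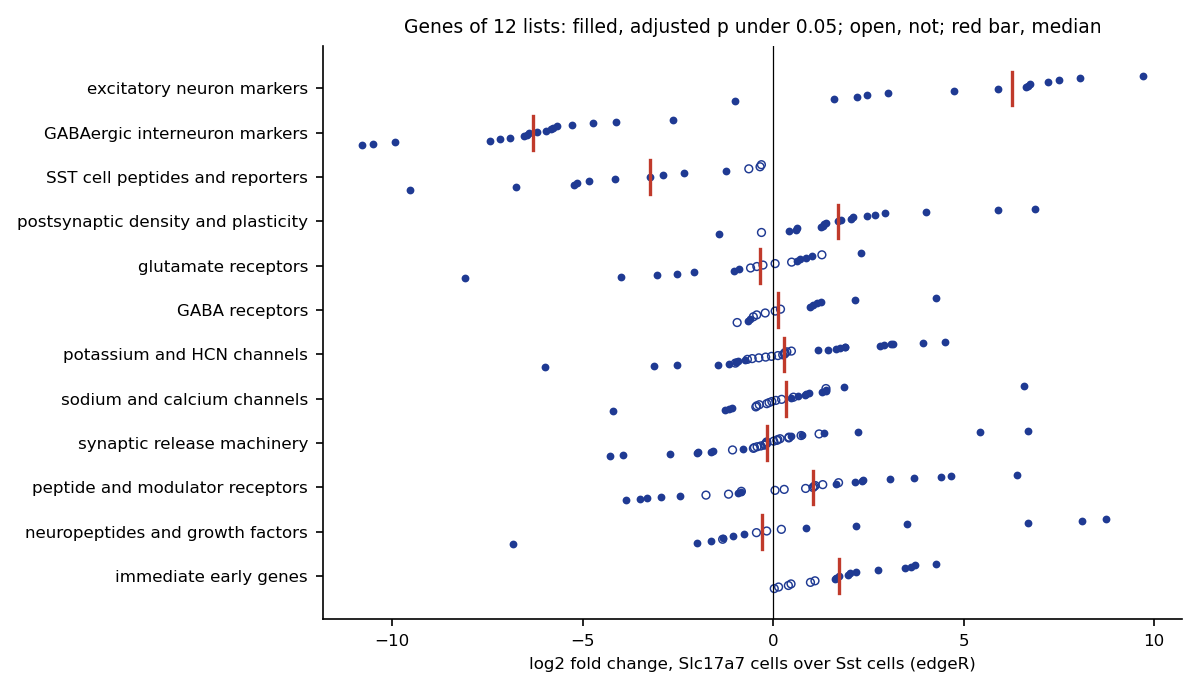
Log2 fold change of Slc17a7 cells over Sst cells (horizontal axis) for each tested gene of 12 lists, filled where the adjusted p was under 0.05 and open where it was not, with a red bar at the median of each list. Excitatory markers, genes of the postsynaptic density and immediate early genes lie mostly right of 0, GABAergic markers all left of 0, and the receptor, channel and release lists on both sides.

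Markers of cortical layers and projection classes gave no uniform picture. Among those tested, L5 PT markers (pyramidal tract neurons of layer 5) had 4 of 5 higher and 0 lower, and L6b markers 3 of 4 higher and 1 lower. L6 CT markers (corticothalamic neurons) had 2 of 4 higher and 1 lower, L5 IT markers (intratelencephalic neurons) 2 of 4 higher and 1 lower, and L2/3 IT markers 2 of 5 higher and 3 lower. The 2 higher L5 IT markers were Etv1 and Fezf2, although Fezf2 specifies subcerebral projection neurons, as given below. Of the markers of L4 IT cells 0 of 2 were higher and 1 was lower, of L5/6 NP cells (near-projecting neurons) 1 of 2 was higher and 1 lower, and the only L6 IT marker tested, Oprk1, did not pass (log2 fold change 1.05 ± 0.55, adjusted p = 0.209). Several of these genes were high in SST cells as well. Calb1, a calcium buffer, was at 68.8, 145 and 45 CPM in the Slc17a7 cells, against 636, 778 and 694 CPM in the Sst cells (log2 fold change -2.95 ± 0.24, adjusted p = 1.78e-07). Rasgrf2, Cux2, Whrn, Sulf2, Syt6 and Moxd1 were also lower in the Slc17a7 cells.

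Layer markers that were higher in the Slc17a7 cells differed between libraries. Lamp5, a lysosomal membrane protein of upper layers, was at 222, 57 and 40.5 CPM in the Slc17a7 cells, against 1.06, 1.03 and 0 CPM in the Sst cells (log2 fold change 7.16 ± 0.51, adjusted p = 4.79e-08). Wfs1, an endoplasmic reticulum protein, was at 80.9, 171 and 76.4 CPM in the Slc17a7 cells, against 33.1, 6.17 and 5.19 CPM in the Sst cells (log2 fold change 3.28 ± 0.49, adjusted p = 0.000134). Lamp5 peaked at P97 and Wfs1 in P45 replicate 1. Fezf2, the factor that specifies subcerebral projection neurons, was at 52.6, 68.4 and 40.5 CPM in the Slc17a7 cells, against 0.422, 0.514 and 0 CPM in the Sst cells (log2 fold change 7.25 ± 0.60, adjusted p = 2.32e-07). Ldb2, another gene of these neurons, was at 117, 76.1 and 54 CPM in the Slc17a7 cells, against 4.43, 8.74 and 6.84 CPM in the Sst cells (log2 fold change 3.65 ± 0.38, adjusted p = 3.35e-06). Fezf2 was highest in P45 replicate 1 and Ldb2 at P97.

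Corticothalamic and L6b genes showed the same unevenness. Rprm, a p53 target used as a marker of corticothalamic cells, was at 28.3, 39.9 and 175 CPM in the Slc17a7 cells, against 0.422, 1.03 and 0.944 CPM in the Sst cells (log2 fold change 6.44 ± 0.53, adjusted p = 2.45e-07). It was seen in 4, 11 and 2 cells, so that 2 of 25 cells carried the level of P45 replicate 2. Hs3st4, a heparan sulfate sulfotransferase of these cells, was at 36.4, 34.2 and 67.4 CPM in the Slc17a7 cells, against 0.422, 1.29 and 1.65 CPM in the Sst cells (log2 fold change 5.35 ± 0.52, adjusted p = 1.47e-06). The L6b genes were uneven. Ctgf, a matricellular protein, was at 52.6, 19 and 27 CPM in the Slc17a7 cells, against 1.69, 1.54 and 1.42 CPM in the Sst cells (log2 fold change 4.33 ± 0.54, adjusted p = 2.15e-05), from 5 of the 113 cells. Cplx3 was at 89, 26.6 and 85.4 CPM in the Slc17a7 cells, against 0.844, 2.06 and 1.42 CPM in the Sst cells. The nuclear receptor Nr4a2, which is also an immediate early gene, was at 84.9, 127 and 531 CPM in the Slc17a7 cells, against 1.69, 15.7 and 8.26 CPM in the Sst cells (log2 fold change 4.73 ± 0.44, adjusted p = 8.54e-07). It was highest in P45 replicate 2. Etv1, a factor of layer 5, was at 214, 87.5 and 85.4 CPM in the Slc17a7 cells, against 115, 39.6 and 47.9 CPM in the Sst cells (log2 fold change 1.01 ± 0.20, adjusted p = 0.00161). Lypd1, a modulator of nicotinic receptors, was at 40.4, 253 and 94.4 CPM in the Slc17a7 cells, against 36.7, 44.5 and 37.7 CPM in the Sst cells (log2 fold change 1.67 ± 0.33, adjusted p = 0.0015). Each of these was higher in all 3 libraries, but the library in which it peaked varied.

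The other layer markers were weaker. Bcl6, Parm1 and Npr3, of the L5 PT list, had log2 fold changes of 2.45 ± 0.67, 1.27 ± 0.34 and 2.45 ± 0.72. Bcl6 was at 52.6, 24.7 and 0 CPM in the Slc17a7 cells, against 3.59, 4.37 and 6.37 CPM in the Sst cells. In P45 replicate 2 it had no UMI in the 25 cells, which hold too few UMIs to show a lower level. The calls of Bcl6 and Parm1 were lost without the P97 library, at 1.62 and 0.62, that of Npr3 without P45 replicate 1 and without P45 replicate 2, and those of Lypd1 and Syt6 without P45 replicate 1, at 0.85 and -2.03. Etv1 lost its call without the library block, at 0.92. Tle4 of the L6 CT list (log2 fold change 0.18 ± 0.26, adjusted p = 0.693), Deptor of the L5 IT list (log2 fold change 0.44 ± 0.45, adjusted p = 0.571), Fam84b of the L5 PT list (log2 fold change 0.67 ± 0.56, adjusted p = 0.46) and Tmem215 of the L4 IT list (log2 fold change 1.67 ± 0.58, adjusted p = 0.0544) did not pass. Tshz2, of near-projecting cells, had no UMI in the Slc17a7 cells and 260 in the Sst cells (at least 6.71-fold lower). Rorb, the factor of layer 4, had UMIs in 3 of 18 cells at P97, 0 of 70 in P45 replicate 1 and 4 of 25 in P45 replicate 2.

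Cell by cell, most Slc17a7 cells carried too few layer markers to be placed. A cell was given a class where 2 or more genes of 1 list were seen in it and no other list had as many, using the 31 listed genes under 10 CPM in the Sst cells. Fezf2, seen in 28 of the 113 cells, counted toward L5 IT. By this measure 27 of 113 cells had a class, of which 9 were L5 PT, 8 L6 CT, 4 L4 IT, 4 L6b, 1 L5 IT and 1 L6 IT, while 1 cell was tied and 85 had none. The cells without a class were 7 of 18 at P97, 61 of 70 in P45 replicate 1 and 17 of 25 in P45 replicate 2. A class was given to 9 of the 82 cells of the tdTomato pattern and 16 of the 23 of the GFP pattern, a difference described without a test because the patterns were chosen after the values had been seen. Classes were counted without thinning, and the median totals of the patterns were 7328.5 and 9311 UMIs. The tdTomato pattern also held 53 of the 56 cells with 3 or more Zbtb20 UMIs described below. The part of either in the class shares was not tested. Foxp2, a factor of corticothalamic cells, was seen in 0 of 82 and 7 of 23 of these cells, and Cplx3 in 6 and 5.

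A set of Slc17a7 cells at P45 stood apart by Zbtb20 (chr16:42875881-43642602), a transcription factor that in mouse brain is best known from pyramidal cells of the hippocampus. Taking 3 or more UMIs as the limit, chosen after the values had been seen, such cells were 0 of 18 at P97, 45 of 70 in P45 replicate 1 and 11 of 25 in P45 replicate 2, and 0 of 6 in the GFP+/tdTomato+ library. Of these 56 cells 53 had the tdTomato pattern and 1 the GFP pattern. Their median total was 6963 UMIs in P45 replicate 1, against 6408 in the other cells of that library, and 7104 UMIs in P45 replicate 2, against 9079.5.

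Other genes went along with Zbtb20. Fibcd1 (chr2:31813290-31846005), a chitin-binding receptor known in mouse brain from hippocampal area CA1, was seen in 47 of the 56 cells and in 12 of the other 57. Cpne7, a calcium-binding copine, was seen in 48 and 21, Lmo1, a transcriptional cofactor, in 46 and 18, and Neurod6 in 53 and 36. Tbr1 (chr2:61802930-61814114) ran the other way, in 3 of the 56 cells and 35 of the other 57. Within P45 it was seen in 2 of 45 against 11 of 25 cells in replicate 1, and in 1 of 11 against 10 of 14 in replicate 2. Emx1 was seen in 9 and 17, but 8 of these 17 were P97 cells. Within P45 it differed little in replicate 1, at 6 of 45 against 4 of 25 cells, and was in 3 of 11 against 5 of 14 in replicate 2. Wfs1 was seen in 34 of the 56 cells and 24 of the other 57. In the cells at or above the limit Wfs1 was at 167 CPM in P45 replicate 1 and 163 CPM in P45 replicate 2. The other cells of these libraries were at 179 and 28.1 CPM. In the sums, the 45 cells of P45 replicate 1 were at 327 CPM for Fibcd1, 449 CPM for Cpne7 and 5.58 CPM for Tbr1. The 11 cells of P45 replicate 2 were at 438, 551 and 12.5 CPM. The 18 cells at P97, none of which reached the limit, were at 12.1, 12.1 and 178 CPM. The P45 cells below the limit were at 119, 155 and 131 CPM in replicate 1 and at 7.02, 77.2 and 225 CPM in replicate 2. The labels name somatosensory cortex as the tissue of every library.

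Zbtb20 and Fibcd1 were also seen in Sst cells. Of the Sst cells 73 of 546, 117 of 655 and 84 of 638 held 3 or more Zbtb20 UMIs. Of these 274 cells, 117 held Fibcd1, 15 held Cpne7 and 4 held Lmo1. Over all cells Zbtb20 was at 28.3, 721 and 472 CPM in the Slc17a7 cells, against 103, 197 and 127 CPM in the Sst cells. Fibcd1 was at 12.1, 260.5 and 162 CPM in the Slc17a7 cells, against 48.3, 77.7 and 63.5 CPM in the Sst cells. Both were lower than in the Sst cells at P97 and higher at P45. Lmo1 (20.2, 287 and 184 CPM in the Slc17a7 cells, against 2.95, 6.17 and 8.96 CPM in the Sst cells) and Cpne7 (12.1, 356 and 247 CPM in the Slc17a7 cells, against 6.96, 18.5 and 8.73 CPM in the Sst cells) were higher in the Slc17a7 cells in P45 replicates 1 and 2 and lay closer at P97.

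**Figure D4:**
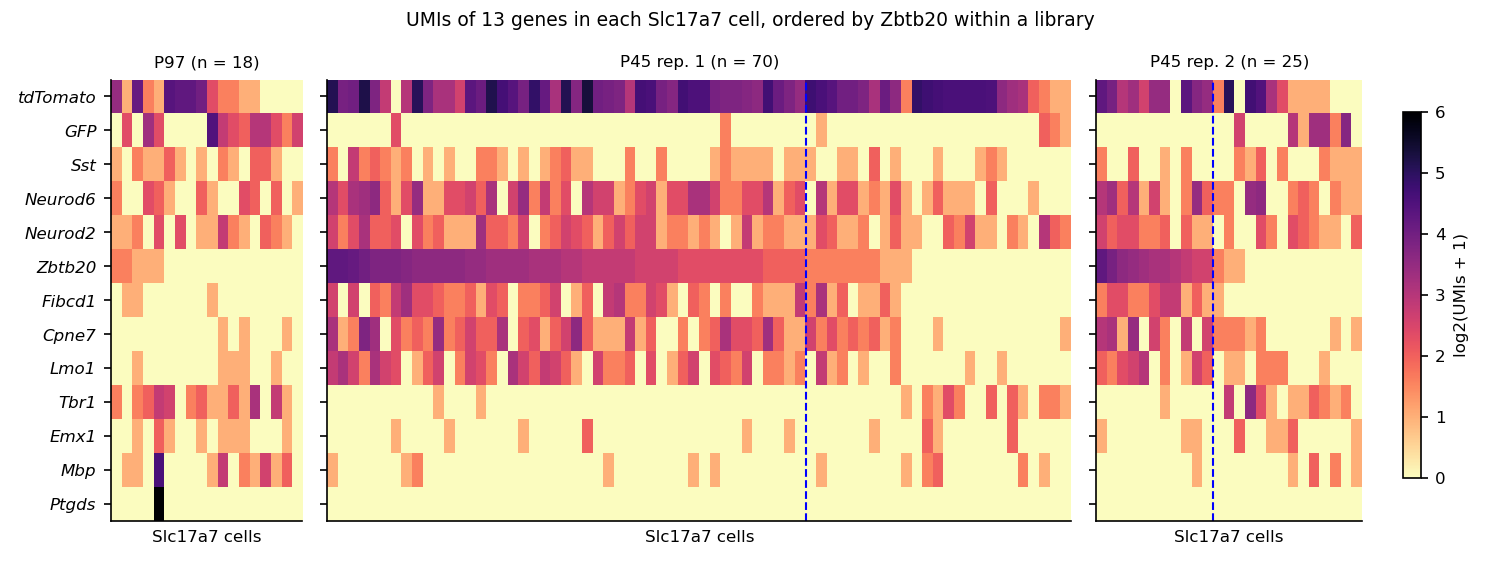
UMIs of 13 genes (rows) in each of the 113 Slc17a7 cells (columns), coloured by log2(UMIs + 1) with all values above 6 at the darkest colour, ordered by Zbtb20 within each library and with a dashed line after the last cell with 3 or more Zbtb20 UMIs. Left of the line, in the P45 libraries, Fibcd1, Cpne7 and Lmo1 are seen in most cells and Tbr1 in 3 of 56, and in the P97 library 1 cell carries the Ptgds UMIs.

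Genes of other cell types were scarce in the Slc17a7 cells. All 7 microglial markers were at 0. The endothelial and mural list summed to 3.8 to 13.5 CPM in a library, against 3.54 to 6.54 CPM in the Sst cells. Of the 8 astrocyte markers, the defining Aqp4, Gja1, Slc1a3, Gfap and Gjb6 were at 0. Aldh1l1, another astrocyte gene, had too few UMIs to be tested and was seen in 5 of the 113 Slc17a7 cells, against 1 of 1839 Sst cells. Aldoc, an astrocyte enzyme gene, was at 60.7, 5.7 and 4.5 CPM in the Slc17a7 cells, against 31, 28 and 7.55 CPM in the Sst cells. Slc1a2, a glutamate transporter gene that excitatory neurons also transcribe, was at 538, 297 and 472 CPM in the Slc17a7 cells, against 14.3, 17.7 and 10.6 CPM in the Sst cells (log2 fold change 4.94 ± 0.25, adjusted p = 8.70e-10). Of 6 markers of other interneurons, Cck rose and 4 fell, among them Reln (log2 fold change -5.31 ± 0.34, adjusted p = 1.35e-08) and Pvalb (log2 fold change -4.86 ± 0.37, adjusted p = 1.06e-07). Of the 6 oligodendrocyte markers tested, 0 were higher and 5 lower. Mobp, a myelin protein gene, was at 12.1, 7.61 and 13.5 CPM in the Slc17a7 cells, against 55.3, 95.1 and 94.8 CPM in the Sst cells (log2 fold change -2.98 ± 0.36, adjusted p = 1.50e-05). The summed level of the oligodendrocyte list was 566, 51.3 and 58.4 CPM in the Slc17a7 cells, against 1118, 1097 and 1125 CPM in the Sst cells.

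In the P97 library the oligodendrocyte genes came mostly from 1 barcode. Of the UMIs of the 18 Slc17a7 cells there, it held 23 of 44 of Mbp, which encodes myelin basic protein, all 16 of Cldn11 and all 8 of Mog, together with all 258 UMIs of Ptgds, a prostaglandin synthase of meninges and oligodendrocytes, and 50 of 51 of Apoe. Scrublet did not mark it. In the Sst cells, 5 of 546 cells at P97, 2 of 655 in P45 replicate 1 and 3 of 638 in P45 replicate 2 held 20 or more Ptgds UMIs.

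The design also sets P97 against P45 cells. Only 1 library stands against 2, so the age of the mice and their batch cannot be told apart, and P97 contributed 18 cells against 95. In a fit with both cell sets at both ages, 73 of 10784 genes passed in the Slc17a7 cells (0.677%), 50 higher (0.464%) and 23 lower (0.213%) at P97, with a median log2 fold change of -0.03. No leaving-out of a library could be fitted, because 4 groups of sums would then have 4 sums. Each cell set had 1 P97 library, so the spread between libraries in this fit came from the P45 libraries alone. The same fit gave the test of age differences between the cell sets described below. Named are the 8 largest differences in each direction among genes that passed, had 50 CPM or more at the higher age and a P97 level outside both P45 levels, with 7 of the 8 higher genes given.

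The higher genes were in part those of the barcode just described. Ptgds was at 1043 CPM at P97, against 0 and 0 CPM at P45, at least 260.3-fold higher, and Apoe, a lipid carrier, at 206 CPM at P97, against 0 and 0 CPM at P45, at least 51.5-fold higher. Cnp, a myelin gene, had 19 UMIs at P97 and 2 at P45, a ratio of pooled CPM of 28.8, exact 95% interval 6.94 to 255. Without the barcode, which its Ptgds UMIs chose after the data were seen, the calls of Cnp, Gatm, which encodes an enzyme of creatine synthesis, and Csrp1, a LIM domain protein, were lost, as was that of Gm3550 below, with an adjusted p of 0.0597. Gatm had 17 UMIs at P97 and 1 at P45, a ratio of 51.5, exact 95% interval 8.06 to 2150.2, and Csrp1 13 and 1, a ratio of 39.3, exact 95% interval 5.91 to 1672. Vat1l was at 89 CPM at P97, against 5.7 and 4.5 CPM at P45 (log2 fold change 3.99 ± 0.58, adjusted p = 0.0104), with all its P97 UMIs in cells of the GFP pattern.

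Vps8 (chr16:21423118-21644680), a subunit of an endosomal tethering complex, stood apart from the rest. It was at 3061 CPM at P97, against 22.8 and 18 CPM at P45 in the Slc17a7 cells (log2 fold change 7.11 ± 0.26, adjusted p = 8.01e-08) and at 3043 CPM at P97, against 19.5 and 22.6 CPM at P45 in the Sst cells, so P97 lay above both P45 libraries in both cell sets. It passed under all 11 alternatives run for the age comparison. Gm3550 was the reverse, at 0 CPM at P97, against 87.5 and 148 CPM at P45 in the Slc17a7 cells (at least 8.7-fold lower) and 3.38 CPM at P97, against 95.4 and 144 CPM at P45 in the Sst cells.

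Among the other lower genes were Zbtb20 and genes that went along with it. Zbtb20 was at 28.3 CPM at P97, against 721 and 472 CPM at P45 (log2 fold change -4.48 ± 0.57, adjusted p = 0.00438). Cpne7 was at 12.1 CPM at P97, against 356 and 247 CPM at P45, a ratio of pooled CPM of 0.0375, exact 95% interval 0.00768 to 0.111. Both P45 libraries lay far above P97. Lmo1 was at 20.2 CPM at P97, against 287 and 184 CPM at P45 (log2 fold change -3.66 ± 0.55, adjusted p = 0.012). Fibcd1 was at 12.1 CPM at P97, against 260.5 and 162 CPM at P45, a ratio of 0.0525, exact 95% interval 0.0107 to 0.156, and each passed the test. Arhgap12, which inactivates small GTPases, was at 8.09 CPM at P97, against 159.7 and 89.9 CPM at P45, a ratio of 0.0582, exact 95% interval 0.00696 to 0.216. Man1a, a mannosidase of the Golgi, was at 20.2 CPM at P97, against 198 and 157 CPM at P45 (log2 fold change -3.23 ± 0.57, adjusted p = 0.0305). Sh3bgrl was at 32.4 CPM at P97, against 162 and 139 CPM at P45 (log2 fold change -2.29 ± 0.42, adjusted p = 0.0369). In the Sst cells Zbtb20 was at 103 CPM at P97, against 197 and 127 CPM at P45, and its age difference did not pass the test of a difference between the cell sets (log2 difference -3.81 ± 0.67, adjusted p = 0.102), though it did with library as a block (-3.77 ± 0.47, adjusted p = 8.02e-12), a fit with 1 residual degree of freedom. Among the Slc17a7 cells with fewer than 3 Zbtb20 UMIs, an alternative chosen after seeing the data, 19 genes passed in place of 73, and of the 15 genes given 12 lost their call. Zbtb20 chose these cells, so its own value there, and in part those of the genes seen with it, follow from the choice. Cpne7, Fibcd1 and Lmo1 had log2 fold changes of -3.26, -2.45 and -1.85 and did not pass.

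**Figure D5:**
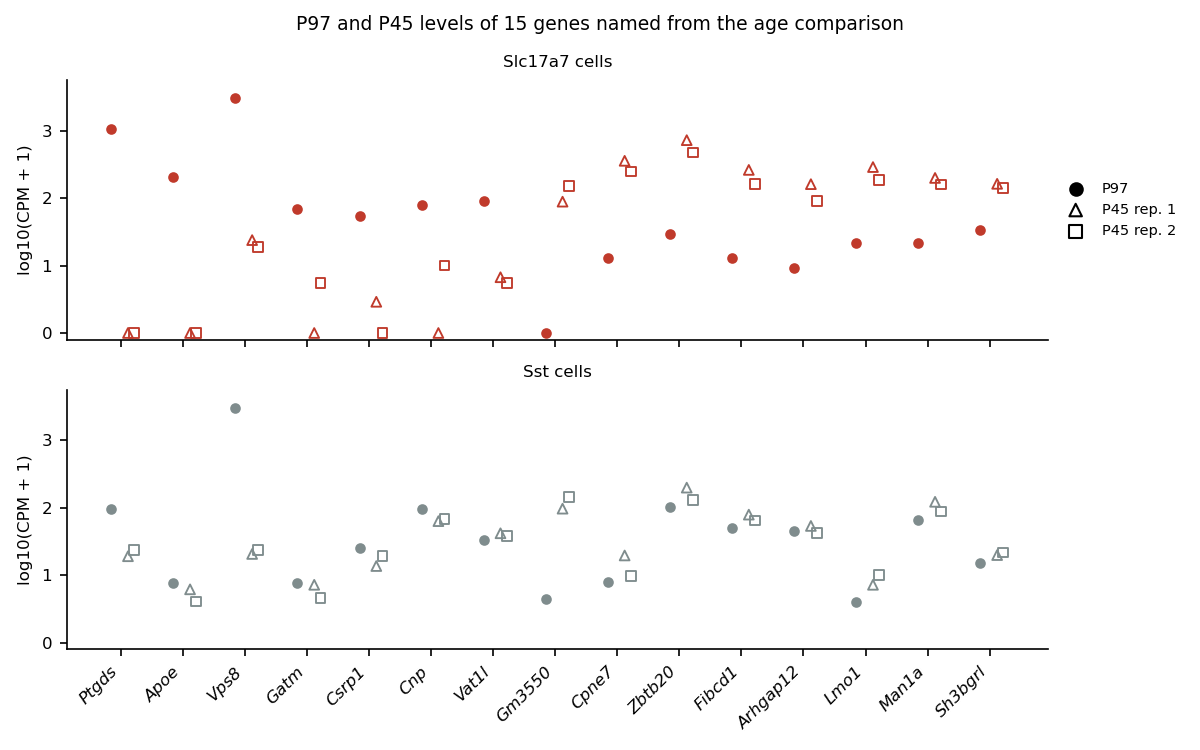
Levels of 15 genes named from the age comparison as log10(CPM + 1), with the Slc17a7 cells above and the Sst cells below, P97 as a filled circle and the P45 libraries as an open triangle (replicate 1) and an open square (replicate 2). Vps8 and Gm3550 differ between the ages in both panels, while Ptgds, Apoe and the genes from Cpne7 to Sh3bgrl lie farther apart in the upper panel.

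The difference between ages was also tested for a difference between the cell sets, and 9 genes passed (0.0835% of those tested), 8 with a higher P97 level relative to P45 in the Slc17a7 cells than in the Sst cells (0.0742%) and 1 with a lower one (0.00927%). Vps8 and Gm3550 did not pass it, with adjusted p-values of 0.992 and 0.83. With library as a block, a fit added after seeing the data that leaves 1 residual degree of freedom, 90 genes passed, 52 higher and 38 lower, the 9 among them, and Vps8 and Gm3550 had adjusted p-values of 0.997 and 0.84.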

How the data were processed

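Cells were profiled with Chromium Single Cell 3' libraries. The authors deposited raw UMI counts per gene and barcode, made with Cell Ranger 2.0.0 on GRCm38 (submitters' processing notes, with the release of the annotation not given in the sources used here), and the deposited barcodes are those called cells. The 28000 features include tdTomato and GFP, and 27722 of 27998 gene IDs were found in GENCODE vM21, which gave coordinates.

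UMIs were summed per library over each cell set and tested with edgeR 4.0.16 (R 4.3.3; TMM, filterByExpr, quasi-likelihood test, Benjamini-Hochberg over all genes tested, threshold 0.05). Library was a block between cell sets, because both came from the same mice. Ages were compared in a fit of 4 groups without a library term. The 4 rule genes entered library sizes only. The standard error is the log2 fold change over the square root of F. Levels are CPM, UMIs per 1000000 of a sum. Genes at 0 were bounded with 3 UMIs per cell set. Shares were also taken after thinning each cell to 2000 UMIs. Scripts (Python 3.11.15, scanpy 1.11.5) were tested on simulated data.

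Named were the rule genes, reporters and layer markers, up to 5 called and 3 uncalled genes of each other list, the 10 largest changes each way outside the lists with 50 CPM or more, and 8 each way between ages; for length, some that this rule allows are only counted, and a few are not reported here. Limits on reporters, Zbtb20 and Ptgds were set after the values had been seen. The members and lists were chosen with earlier results of these data known. Alternatives were DESeq2 1.42.0, its size factors, no filter on low counts, thinning, stricter members, Scrublet, no block and leaving out libraries, and, chosen after seeing the data, a library block for the age differences and members by reporter pattern, Zbtb20 or Ptgds. Totals of 4801367 to 5693022 UMIs per library over few cells leave genes with few UMIs imprecise.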

Additional observations from a re-analysis of the deposited data

Results flagged for a closer look

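The difference between P97 and P45 was itself tested for a difference between Slc17a7 and Sst cells, as an interaction in edgeR's quasi-likelihood fit with Benjamini-Hochberg adjustment, and 9 genes (0.0835% of those tested) passed. Each value below is the log2 age difference in the Slc17a7 cells minus that in the Sst cells, with 1 P97 library against 2 P45 libraries, and 8 of the 9 genes are given. Among them, Tac1 was seen in only 2 of the 113 Slc17a7 cells, 1 at P97 and 1 in P45 replicate 1. Its P97 level in the Slc17a7 cells thus came from 1 cell.

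Genes carried at P97 mostly by the 1 barcode rich in Ptgds were Ptgds (12.04 ± 0.97, adjusted p = 0.000754), Apoe (11.20 ± 1.61, adjusted p = 0.0467) and Mbp (2.65 ± 0.35, adjusted p = 0.0204). Serpine2, a protease inhibitor, had a value of 4.09 ± 0.62, adjusted p = 0.0467, at 80.9 CPM at P97, against 9.51 and 22.5 CPM at P45 in the Slc17a7 cells and 8.44 CPM at P97, against 24.4 and 25.2 CPM at P45 in the Sst cells. Vat1l had a value of 4.29 ± 0.61, adjusted p = 0.0339, at 31.7 CPM at P97, against 40.6 and 36.8 CPM at P45 in the Sst cells. Tac1, the substance P precursor, had a value of 7.58 ± 0.97, adjusted p = 0.0177, at 44.5 CPM at P97, against 1.9 and 0 CPM at P45 in the Slc17a7 cells and 5.28 CPM at P97, against 31.4 and 33.7 CPM at P45 in the Sst cells. Arpp21 had a value of 2.40 ± 0.30, adjusted p = 0.0177, at 825 CPM at P97, against 466 and 553 CPM at P45 in the Slc17a7 cells and 9.71 CPM at P97, against 30.1 and 34.2 CPM at P45 in the Sst cells. Hpca, the calcium sensor hippocalcin, was the only gene in the other direction, with a value of -2.25 ± 0.35, adjusted p = 0.049, at 348 CPM at P97, against 1759 and 1232 CPM at P45 in the Slc17a7 cells and 90.3 CPM at P97, against 83.1 and 86.3 CPM at P45 in the Sst cells.

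The GFP+/tdTomato+ library, which no test used, held 6 Slc17a7 cells among 193 barcodes (3.11%, exact 95% interval 1.15 to 6.64%).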

How the results depend on the processing

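Between Slc17a7 and Sst cells, 2261 genes passed, against 1104 after thinning, 1407 with DESeq2 and 874 with the GFP-pattern members alone, and 1539 to 2340 when a library was left out. Between ages in Slc17a7 cells, 73 passed, against 39 after thinning, 411 with no filter on low counts, 213 in a fit of the Slc17a7 sums alone, 7 and 29 with members of the GFP and the tdTomato pattern and 19 with members under 3 Zbtb20 UMIs. The difference of age differences, 9 genes, gave 14 after thinning, 118 with no filter, 90 with library as a block, 2 with the stricter members, 3 without the Ptgds-rich barcode, 3 and 2 with the GFP and the tdTomato pattern and 2 under 3 Zbtb20 UMIs. The causes were not tested, except that thinning and subsets leave fewer UMIs. Leaving out a library could not be fitted for either age comparison. The share of Slc17a7 cells in the pool was between 4.32% and 7.12% over its alternatives, against 5.37%, but that of P45 replicate 1 was 14.1% at 5000 UMIs or more, against 8.88%, and that of P97 was 1.62% with the stricter members, against 2.92%.

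Of the gene results tabulated between the cell sets (122 genes), 1587 kept their direction and side of the threshold, 48 lost and 14 gained the call and 15 turned. With tdTomato-pattern members the log2 fold change turned to 0.40 for tdTomato, -1.11 for Deptor, -0.84 for Fam84b, -0.89 for Tle4 and -0.15 for Fos. With GFP-pattern members it turned to 0.37 for GFP and -0.97 for Oprk1. The reporters chose these members, so their own turns follow from the choice. Deptor was at -0.18 with the stricter members and -0.13 without the Ptgds-rich barcode. With a library left out it ran from -0.83 to 0.054 for tdTomato, -0.39 to 0.83 for Deptor, -0.17 to 1.13 for Fam84b, -0.027 to 1.89 for Oprk1, -0.028 to 0.40 for Tle4 and -0.14 to 0.68 for Fos. All of these but GFP were uncalled.

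Of the results between ages (15 genes), 102 kept their side, 46 lost the call and 5 turned. With tdTomato-pattern members Gatm was at -5.02, Cnp at -5.01 and Vat1l at -6.98, Cnp was at -5.01 with the stricter members, and Man1a was at 0.64 with the GFP pattern. Of the differences of age differences (8 genes), 48 kept their side, 28 lost the call and 4 turned, with the tdTomato pattern, to -0.67 for Mbp, -6.42 for Serpine2, -2.38 for Tac1 and -6.67 for Vat1l. Such values of genes with no UMI at 1 age depend on the prior count and give no size.

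P97 and P45 libraries could not be paired because the labels give replicate numbers to the P45 libraries alone. In the comparison of cell sets, the sets of a library, which share mice, were paired by the library block. The main fit of both age comparisons had no such block, so there the sums of a library entered as separate samples. Depth limits genes with few UMIs in 113 cells, and P97 rests on 18 of them.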
